A study of Mus musculus with 2 samples.

Results

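Integrin subunits were examined in primary aortic vascular smooth muscle cells (VSMCs) of mice. The members were the rows of the count tables with the symbols *Itga1*, *Itga5*, *Itga7*, *Itga8*, *Itga9*, *Itgav*, *Itgb1*, *Itgb3* and *Itgb5*, which are 6 alpha and 3 beta chains and make 9 of the 31053 genes listed. All 9 were found and all 9 passed the filter on low counts. The study asked whether natriuretic peptide and cGMP signaling differs between contractile and modulated VSMCs, and for this series it sequenced cultures that held cells of both phenotypes. VSMCs of wildtype mice were enzymatically isolated from the thoracic aorta, several aortae being pooled per preparation, and grown in full medium with serum for 5 days before 3′ single-cell RNA sequencing (10x Genomics, v3). There was 1 condition with 2 libraries, biological replicates 1 and 2, which are the replicates of every value (n = 2). No transgene, Cre or treatment is given for them, the age and sex of the mice are not given in the labels, and the cells had left the vessel wall and its matrix.

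Integrins are cell surface receptors made of 1 alpha and 1 beta chain. They bind proteins of the extracellular matrix outside the cell and, through talin, kindlin and other adaptors, the actin cytoskeleton inside, and so pass force in both directions. The alpha chain largely sets the ligand: collagen for the chain of *Itga1*, laminin for that of *Itga7*, the RGD motif of fibronectin, vitronectin, nephronectin and related proteins for those of *Itga5*, *Itga8* and *Itgav*, and tenascin, osteopontin and other ligands for that of *Itga9*. The beta 1 chain pairs with all 6 alpha chains, whereas the beta 3 and beta 5 chains pair with the alpha v chain. Smooth muscle of the vessel wall is known for its alpha 1, alpha 7 and alpha 8 chains, which accompany the contractile state.

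The members lie at separate places of the mouse genome (GRCm38, GENCODE M21), and all are protein coding. *Itga8* (ENSMUSG00000026768) is at chr2:12106632-12301922 on the minus strand and *Itgav* (ENSMUSG00000027087) at chr2:83724397-83806916 on the plus strand. *Itgb1* (ENSMUSG00000025809) is at chr8:128685654-128733200, *Itga9* (ENSMUSG00000039115) at chr9:118606690-118901003, *Itga7* (ENSMUSG00000025348) at chr10:128933818-128958282, *Itgb3* (ENSMUSG00000020689) at chr11:104608000-104670476 and *Itgb5* (ENSMUSG00000022817) at chr16:33829665-33949338, all on the plus strand. *Itga1* (ENSMUSG00000042284) is at chr13:114953096-115101964 and *Itga5* (ENSMUSG00000000555) at chr15:103344286-103366763, both on the minus strand. The exons of *Itga1* overlap those of *Gm49395* on the same strand, and reads that fall on both genes may go uncounted. *Gm49395* itself held 10 and 8 UMIs in the cells of replicates 1 and 2, beside 14220 and 9151 of *Itga1*. Exons of *Itga8*, *Itga7* and *Itgav* overlap genes on the opposite strand only.

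Promoters of 7 members are in the RefSeq table of GRCm38.p6, and *Itga7* and *Itgb3* have no entry. The 250 bases before the start site are shown for 3 of them, chosen for their different results between the classes below: *Itga8* was far lower in cells with little *Myh11*, *Itgb1* moderately lower, and *Itgav* did not pass the test. Capitals mark matches to the motifs searched on both strands, which were the CArG box (the site of serum response factor, which drives contractile genes), CATTCC (the TEAD motif), TGANTCA (AP-1), GGGCGG (the GC box) and the letters TATAAA of the TATA box.
Itga8, chr2:12301945-12302194, minus strand: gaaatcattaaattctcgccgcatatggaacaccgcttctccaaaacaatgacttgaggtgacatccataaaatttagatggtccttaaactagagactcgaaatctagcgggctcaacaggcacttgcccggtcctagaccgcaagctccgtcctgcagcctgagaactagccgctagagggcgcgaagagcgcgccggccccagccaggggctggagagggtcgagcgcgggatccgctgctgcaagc
Itgav, chr2:83724147-83724396, plus strand: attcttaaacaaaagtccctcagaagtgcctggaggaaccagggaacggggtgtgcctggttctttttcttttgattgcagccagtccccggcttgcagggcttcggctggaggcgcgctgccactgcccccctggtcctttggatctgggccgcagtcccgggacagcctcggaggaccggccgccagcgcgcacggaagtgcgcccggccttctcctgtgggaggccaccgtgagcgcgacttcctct
Itgb1, chr8:128685404-128685653, plus strand: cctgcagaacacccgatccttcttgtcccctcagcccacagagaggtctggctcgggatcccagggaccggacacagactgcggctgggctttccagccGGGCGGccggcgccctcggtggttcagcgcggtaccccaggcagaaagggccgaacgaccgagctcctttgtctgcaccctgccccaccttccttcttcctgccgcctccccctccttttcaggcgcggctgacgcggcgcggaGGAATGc
The letters of a CArG box were in 0 of the 7 windows and in 1.47% of all 32851 windows of this length in the table. CATTCC was in the window of *Itgb1* only, where it lies on the opposite strand (GGAATG), and in 12.6% of all windows. GGGCGG was in the windows of *Itga5*, *Itgb1* and *Itgb5* and in 32.7% of all windows. TGANTCA (6.75% of all windows) and TATAAA (12.4%) were in none of the 7. These are matches of letters in a short window and say nothing of binding there or elsewhere. The share of G and C was 68.0% for *Itgb1*, 65.2% for *Itgb5* and 64.4% for *Itgav*, and between 55.6% and 58.4% for *Itga1*, *Itga5*, *Itga8* and *Itga9*.

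A barcode was taken as a cell if it held 300 or more genes and 3000 or more UMIs (unique molecular identifiers, 1 per captured mRNA molecule), of which under 20% were mitochondrial. This left 4866 cells in replicate 1 and 6824 in replicate 2. Cells with at least 2 UMIs in at least 2 of *Pecam1*, *Cdh5*, *Cldn5* and *Gja4* were called endothelial (102 and 141 cells), and of the others those with at least 2 UMIs in at least 2 of *Mki67*, *Top2a*, *Cdk1* and *Birc5* were called cycling (1651 and 1947 cells). The remaining cells were called *Myh11*-high with at least 5 UMIs of *Myh11*, the smooth muscle myosin heavy chain (300 and 534 cells), or *Myh11*-low with at most 1 (2590 and 3924 cells). A further 223 and 278 cells with 2 to 4 UMIs were left between. Levels are given as CPM, the UMIs of a gene per 1000000 UMIs of all cells of a class in a library, and the 8 sums of 4 classes and 2 libraries were fitted together with edgeR. Markers outside the class rules were checked. The sum of 6 smooth muscle markers (*Acta2*, *Tagln* and others, without *Myh11*) was 24263 and 26067 CPM in *Myh11*-high cells and 6160 and 3406 CPM in *Myh11*-low cells. It was 8125 and 6970 CPM in cycling cells and still 2766 and 1969 CPM in endothelial cells. The source of smooth muscle RNA in the endothelial class was not tested. The sum of 8 endothelial markers was 1197 and 1407 CPM in endothelial cells and between 17.5 and 34.4 CPM in the other classes. The sum of 5 fibroblast-like markers (*Lum*, *Dcn*, *Pdgfra*, *Pi16* and *Dpt*, none of them at 0 in any class) was 659 and 972 CPM in *Myh11*-low cells and 353 and 129 CPM in *Myh11*-high cells, so that their sum moved with the main comparison. Singly, none passed in edgeR (adjusted p = 0.0972 to 0.325). With the library as a block *Dcn* (0.0252), *Pdgfra* (0.00309) and *Pi16* (0.0186) passed as higher, while *Lum* (0.0573) and *Dpt* (0.0943) did not pass. The part of these markers in the differences below was not tested. Macrophage and platelet lists each summed to at most 23.4 CPM in any class, and *Ptprc* was at most at 0.65 CPM. *S100b*, a gene of Schwann cells and chondrocytes among others, moved with the main comparison as well, from 12.0 and 4.38 CPM in *Myh11*-high cells to 22.4 and 32.4 CPM in *Myh11*-low cells (log2 fold change 1.68, adjusted p = 0.0901 in edgeR and 0.0134 with the library as a block), and its part was not tested. *Sox10*, a transcription factor gene of Schwann cells, was at 0.018 and 0.079 CPM in *Myh11*-low cells. The libraries shared 9 cell barcodes, where 4.89 would be shared by chance. Free RNA made up an estimated 5.01% and 4.48% of the UMIs of smooth muscle cells. This estimate may be too low, as some of its genes are in the endothelial class rule. The median depth of a class lay between 10250 UMIs (endothelial, replicate 2) and 27638 UMIs (cycling, replicate 1), so that shares of cells with a UMI are also given for cells thinned to 3000 UMIs each.

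*Itgb1*, the shared beta 1 chain, was the most abundant member in every class of both libraries. Its level was 1260.4 and 1060.0 CPM in *Myh11*-high cells (replicates 1 and 2), 766 and 653 CPM in *Myh11*-low cells, 776 and 689.6 CPM in cycling cells and 617 and 621 CPM in endothelial cells. In 3′ libraries a molecule counts once whatever its length, so that shares of UMIs could be compared between genes without dividing by length, although the capture of each 3′ end is not known. Of the UMIs of the 3 beta chains, *Itgb1* held between 83.9% and 89.0% in all classes. The alpha chains showed no such constant order. *Itga8* held 34.4% and 60.5% of the UMIs of the 6 alpha chains in *Myh11*-high cells, but 10.6% and 12.6% in *Myh11*-low cells and 3.80% and 5.43% in endothelial cells. In *Myh11*-low cells *Itga1* and *Itgav* led, where *Itga1* held 36.7% and 32.6% and *Itgav* 29.8% and 39.0%. In endothelial cells *Itga1* (36.2% and 44.2%) and *Itga5* (29.2% and 24.4%) led. The 6 alpha chains summed to 652 and 656 CPM in *Myh11*-high cells and to 309.7 and 237 CPM in *Myh11*-low cells.

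**Figure D1:**
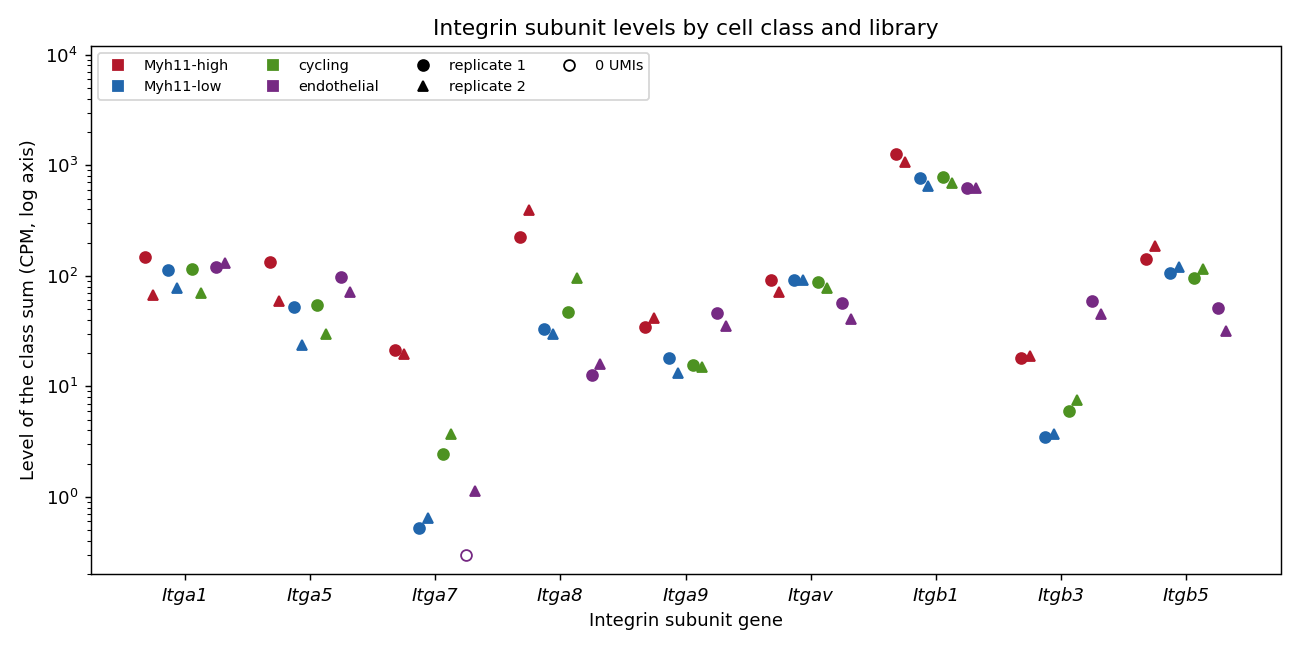
Level of each integrin subunit gene (CPM, log axis) in the sum of each cell class (colour) of replicate 1 (circles) and replicate 2 (triangles), with an open symbol drawn at the bottom for 0 UMIs. *Itgb1* lies highest throughout, *Itga8*, *Itga7* and *Itgb3* lie lower in *Myh11*-low than in *Myh11*-high cells of both libraries, and *Itga7* had 0 UMIs in the endothelial cells of replicate 1.

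**Figure D2:**
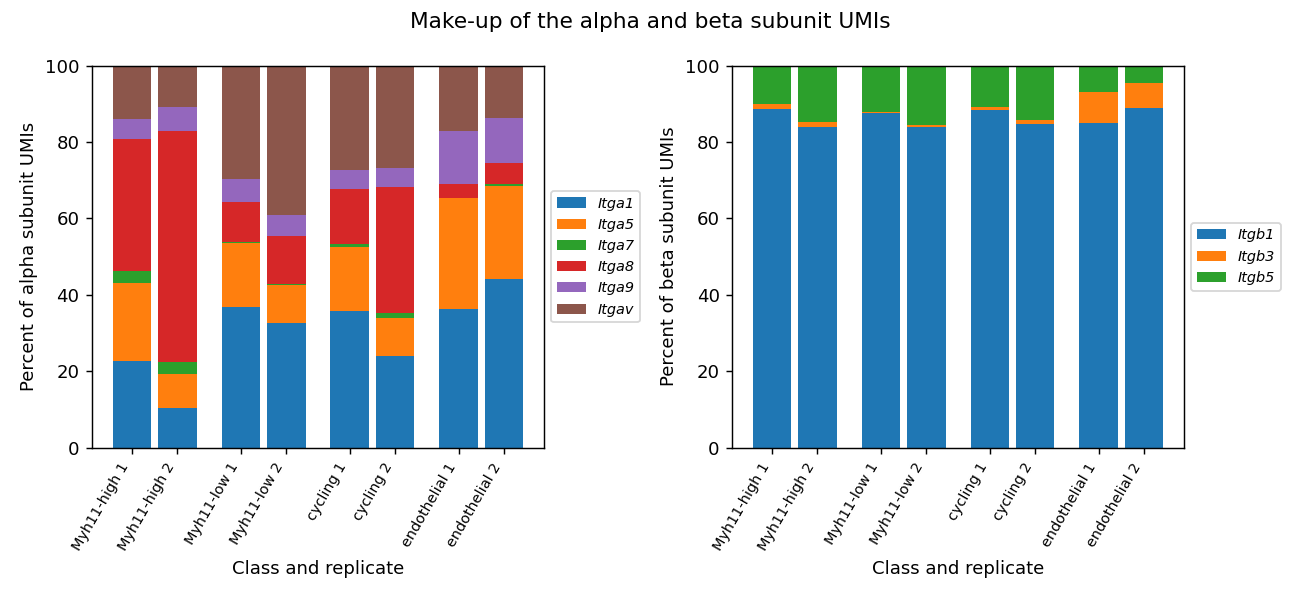
Share of each gene in the UMIs of the 6 alpha chains (left) and of the 3 beta chains (right), in percent, with 1 bar per class and replicate. *Itga8* takes 34.4% and 60.5% of the alpha UMIs in *Myh11*-high cells and 10.6% and 12.6% in *Myh11*-low cells, while *Itgb1* takes 83.9% to 89.0% of the beta UMIs in every class.

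The first comparison was between *Myh11*-low and *Myh11*-high cells outside the cycle, grown in the same cultures. The classes stand for modulated and contractile cells by their *Myh11* count only. Whether all *Myh11*-low cells came from smooth muscle was not tested. Of the 9 members, 5 were lower in *Myh11*-low cells, 0 were higher and 4 did not pass the test (edgeR quasi-likelihood test, Benjamini-Hochberg adjusted p under 0.05 over 14204 genes). This fit did not pair the classes by library, although both came from the same cultures. Over all genes tested, 2.39% were lower and 0.908% higher. The number of members higher was also 0 at an unadjusted p under 0.05 and with DESeq2, which called 5 lower. The median log2 fold change of the members was -1.37, beside 0.03 over all genes. Over the 12 other integrin subunit genes tested it was 0.08, with 1 lower (*Itga3*) and 1 higher (*Itga2*). The members were chosen with earlier results of these data known. These medians therefore cannot tell whether the members differ from integrin subunits at large. With the library as a block, which pairs the classes by library, 7 members were lower and 0 higher, beside 11.3% and 11.2% of all genes.

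*Itga7*, the laminin-binding alpha chain of muscle, differed most. It was at 21.3 and 19.8 CPM in *Myh11*-high cells and at 0.52 and 0.65 CPM in *Myh11*-low cells, which rest on 29 and 41 UMIs. The groups lay far apart, and the log2 fold change was -5.21 ± 0.42 (SE, adjusted p = 0.00541). The gene was found in 29.0% of *Myh11*-high cells of replicate 1 (exact 95% interval 23.9% to 34.5%) and 30.7% of replicate 2 (26.8% to 34.8%), and in 0.97% of *Myh11*-low cells of both libraries. Free RNA alone would give it a UMI in 0.50% and 0.33% of *Myh11*-low cells. After thinning, the shares were 6.12% and 6.09% in *Myh11*-high cells and 0.19% and 0.18% in *Myh11*-low cells. These and all further intervals of shares cover counting error only.

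*Itga8*, whose chain pairs with beta 1 and binds nephronectin and other RGD proteins, followed. It was at 225 and 397 CPM in *Myh11*-high cells and at 32.8 and 29.8 CPM in *Myh11*-low cells, a mean of 311 ± 122 (SD) and of 31.3 ± 2.11 CPM. The 2 libraries thus agreed closely in the low cells and differed by a factor of 1.77 in the high cells without overlap of the classes. The log2 fold change was -3.39 ± 0.41 (adjusted p = 0.0128 in edgeR), with -2.78 within replicate 1 and -3.74 within replicate 2. In replicate 1, 74.7% of *Myh11*-high and 28.9% of *Myh11*-low cells held a UMI, and in replicate 2 these shares were 96.4% and 24.6%. Free RNA alone would give 5.09% and 4.76% of *Myh11*-low cells a UMI. The thinned shares were 39.7% and 65.9% against 8.31% and 8.36%.

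*Itgb3*, the beta chain that pairs with alpha v in the vitronectin receptor, was at 18.2 and 18.7 CPM in *Myh11*-high cells and at 3.51 and 3.73 CPM in *Myh11*-low cells. The log2 fold change was -2.43 ± 0.19 (adjusted p = 0.00532 in edgeR). It was found in 28.0% and 29.4% of *Myh11*-high cells and in 6.60% and 5.40% of *Myh11*-low cells. The thinned shares were 5.33% and 5.45% against 1.05% and 1.32%. *Itga9* was at 34.7 and 41.6 CPM in *Myh11*-high and at 17.9 and 13.2 CPM in *Myh11*-low cells, a log2 fold change of -1.37 ± 0.22 (adjusted p = 0.0274 in edgeR). Within replicate 1 alone it was -0.95, and within replicate 2 it was -1.65. *Itgb1* had the smallest difference of those that passed, -0.79 ± 0.15 (adjusted p = 0.0439), which on the CPM scale was a factor of 1.65 in replicate 1 and 1.62 in replicate 2. Almost every cell held the gene at full depth, namely 97.2% and 97.8% of *Myh11*-low cells and every *Myh11*-high cell of both libraries, though free RNA alone would reach 40.2% and 26.7% of *Myh11*-low cells. After thinning, the shares were 95.9% and 94.7% in *Myh11*-high cells and 85.7% and 82.8% in *Myh11*-low cells.

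*Itga5*, the alpha chain of the classical fibronectin receptor, showed how much a library can weigh. It was at 133 CPM in *Myh11*-high and 52.5 CPM in *Myh11*-low cells of replicate 1, and at 59.6 and 23.5 CPM in replicate 2. Within each library it was thus lower in *Myh11*-low cells by a factor of 2.53, while replicate 1 was 1.36 to 2.23 times as high as replicate 2 in all 4 classes. The log2 fold change of -1.41 ± 0.54 did not pass without the block (adjusted p = 0.231) and passed with the library as a block (-1.42, adjusted p = 9.46e-04 in edgeR). *Itgb5*, the other partner of alpha v, was at 141 and 185 CPM in *Myh11*-high and at 106 and 120.4 CPM in *Myh11*-low cells. Its log2 fold change of -0.61 ± 0.23 likewise passed only with the block (adjusted p = 0.221 without and 0.0354 with it).

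*Itgav* and *Itga1* did not pass either way. *Itgav*, which pairs with beta 1, beta 3 and beta 5, was at 90.8 and 70.8 CPM in *Myh11*-high and at 92.3 and 92.4 CPM in *Myh11*-low cells. Its log2 fold change was 0.11, with an interval from -0.34 to 0.56, so that changes within these bounds were not excluded. With the library as a block it was 0.13 ± 0.10 (adjusted p = 0.429 in edgeR). *Itga1*, the collagen receptor chain, was at 148 and 67.6 CPM in *Myh11*-high and at 114 and 77.2 CPM in *Myh11*-low cells. The direction differed between the libraries (-0.38 in replicate 1 and 0.19 in replicate 2 on the log2 scale), and the interval of the fitted value of -0.25 ran from -1.22 to 0.73. With the block the value was -0.20 ± 0.22 (adjusted p = 0.565 in edgeR).

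**Figure D3:**
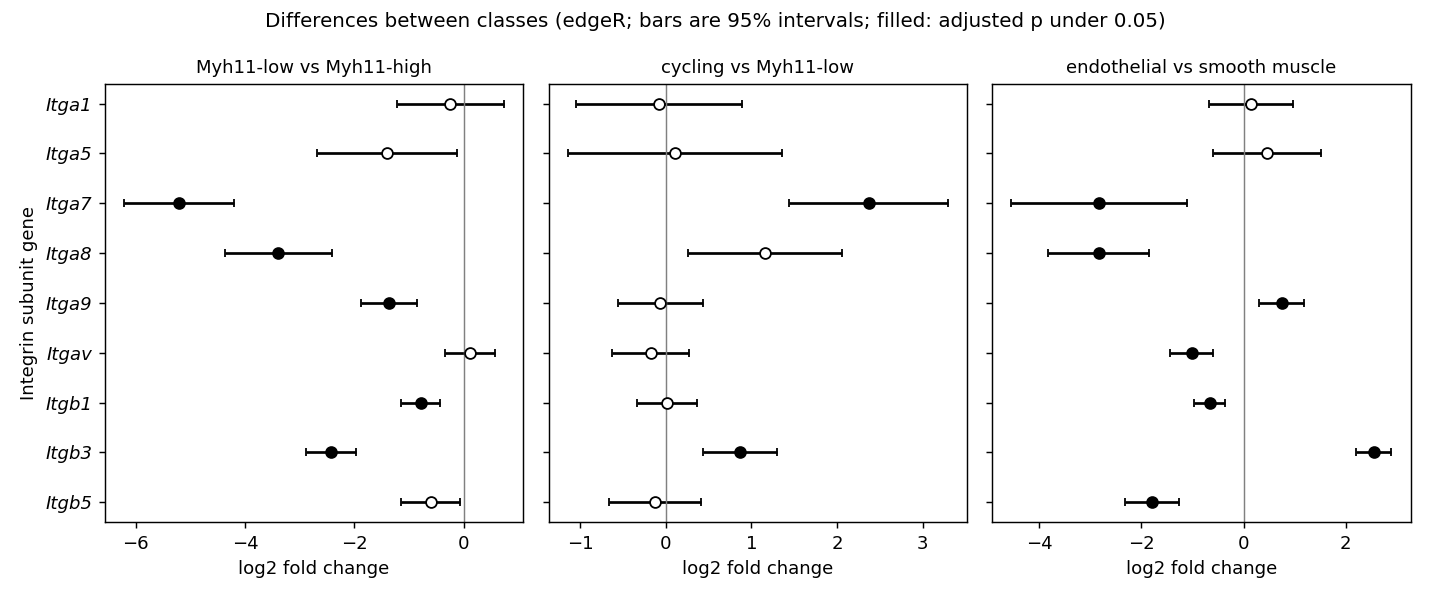
Log2 fold changes of the 9 genes in the 3 comparisons (points) with 95% intervals from the edgeR fit without the library block (bars), where filled points passed an adjusted p of 0.05 over all genes. In *Myh11*-low against *Myh11*-high cells 5 genes lie below 0 and pass, led by *Itga7* at -5.21, while in endothelial cells *Itgb3* at 2.55 and *Itga9* at 0.75 lie above 0 and pass.

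The same levels were followed over the number of *Myh11* UMIs per cell, in 6 steps from 0 to at least 20 (a description, as the steps share the libraries). *Itga8* climbed at every step of both libraries, from 30.0 CPM in cells with 0 UMIs to 374 CPM in cells with at least 20 in replicate 1, and from 27.1 to 502 CPM in replicate 2. In replicate 2 it was already at 194 CPM in cells with 2 to 4 UMIs, where replicate 1 had 77.3 CPM. *Itga7* climbed at every step too. In replicate 1 it went from 0.39 CPM with 0 UMIs over 2.98 CPM with 2 to 4 and 17.7 CPM with 10 to 19 to 42.4 CPM with at least 20, and at the same steps of replicate 2 it was at 0.51, 8.95, 20.5 and 28.3 CPM. *Itgb1* and *Itgb5* climbed at every step in both libraries by a smaller factor, *Itgb1* from 755 to 1517 CPM and from 648 to 1244 CPM. *Itgb3*, *Itga5* and *Itga9* ended highest in the cells with at least 20 UMIs, with at most 1 step down on the way in replicate 1 and none in replicate 2. *Itgav* stayed between 81.8 and 97.6 CPM in replicate 1 and between 66.1 and 93.0 CPM in replicate 2. *Itga1* rose and fell again in replicate 1, with its highest level of 175 CPM at 5 to 9 UMIs, and had its highest level of 98.4 CPM at the last step in replicate 2.

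**Figure D4:**
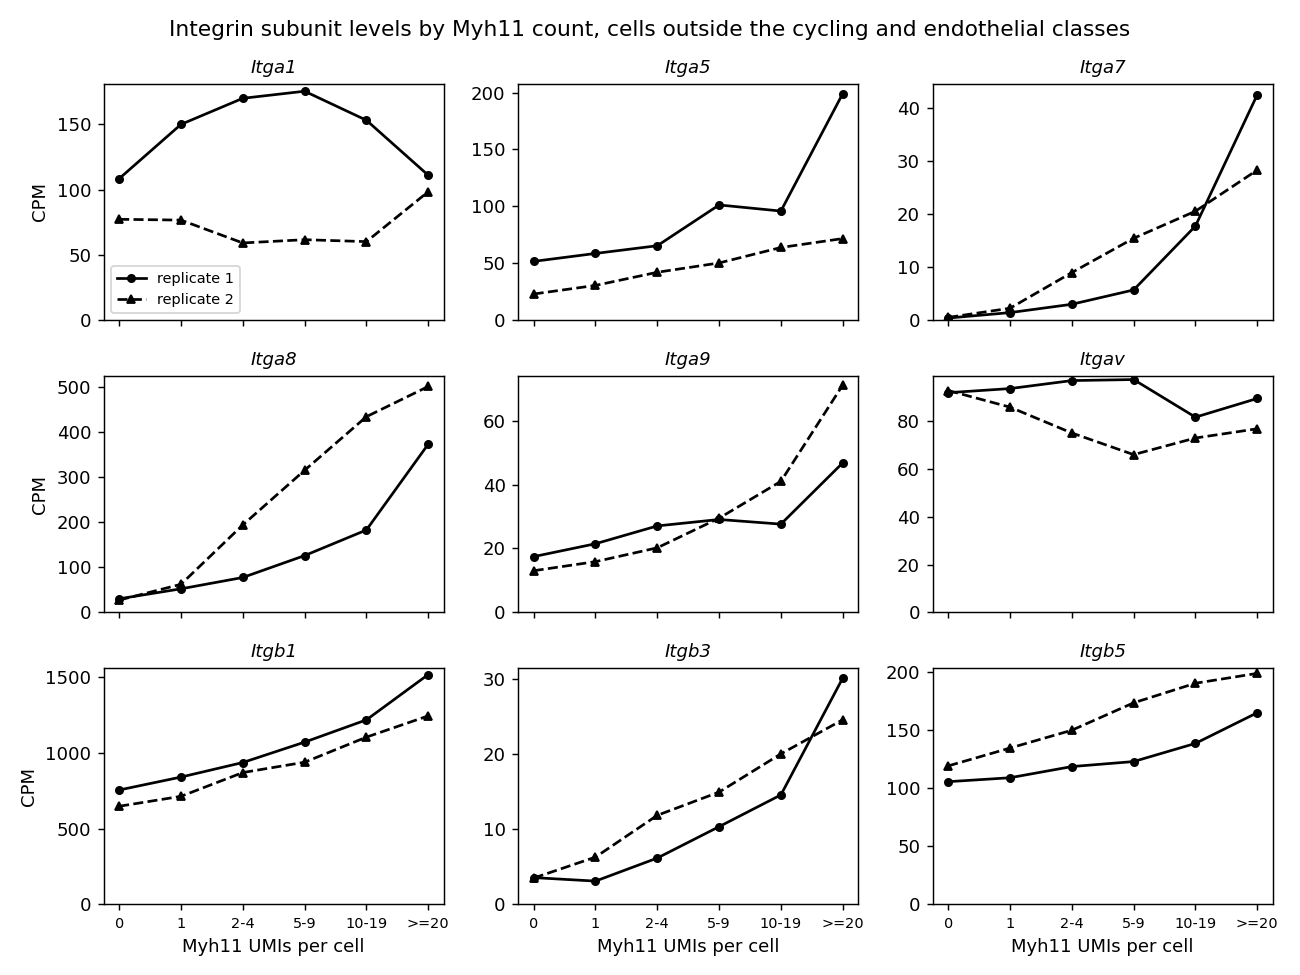
Level of each gene (CPM, axes from 0) against the *Myh11* UMIs per cell in 6 steps, in cells outside the cycling and endothelial classes, for replicate 1 (solid, circles) and replicate 2 (dashed, triangles). *Itga8*, *Itga7*, *Itgb1* and *Itgb5* climb at every step of both libraries, and *Itgav* stays between 66.1 and 97.6 CPM.

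*Myh11*-low cells are a mixed class, and *Itga8* varied most among the well-counted members within it. Cells with at least 2 UMIs of a given gene were set against those with 0 UMIs of it, as a description. In cells with *Fgf18*, a growth factor gene, *Itga8* was at 47.1 and 49.7 CPM, against 23.9 and 25.9 CPM without it, a ratio of 1.97 and 1.92. It was lower in cells with *Sox9*, a chondrocyte transcription factor (18.8 and 18.1 against 40.5 and 39.6 CPM), in cells with *Gpnmb*, a lysosomal glycoprotein of foam cells (21.1 and 23.4 against 38.5 and 50.8 CPM), and in cells with *Il1rn*, the interleukin 1 receptor antagonist (12.4 and 15.7 against 37.8 and 30.6 CPM). With *Spp1*, which encodes the integrin ligand osteopontin, the ratio was 0.53 and 0.83. *Itga1* was lower in cells with *Sox9* (ratio 0.72 and 0.60) and with *Gpnmb* (0.69 and 0.79), and higher in cells with *Lum*, a proteoglycan of fibroblasts (1.21 and 1.42). *Itgb5* was also higher in cells with *Lum* (1.42 and 1.29). For *Itga8* the ratio by *Lum* had opposite directions in the libraries, 1.35 and 0.81. *Itgav* and *Itgb1* hardly varied, with ratios from 0.97 to 1.12 and from 0.90 to 1.14 over the 6 genes that could be compared in both libraries. Cells with *Tfap2b* were enough in replicate 2 only (86 cells), and cells with *Acan* were under 20 in both libraries. The ratio by *Tfap2b* in replicate 2 was 0.71 for *Itgav* (136 UMIs with *Tfap2b*) and 0.58 for *Itga1* (94 UMIs). It was 1.02 for *Itga8* and 1.01 for *Itgb1*. The cells with *Il1rn* in replicate 2 were 96, with 21 UMIs of *Itga8*. Median depth differed between cells with and without a gene, for *Gpnmb* in replicate 2 by 16239 against 10778 UMIs. In free RNA *Itga8* was at 48.8 and 67.5 CPM. The part of depth and free RNA in these ratios was not tested.

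**Figure D5:**
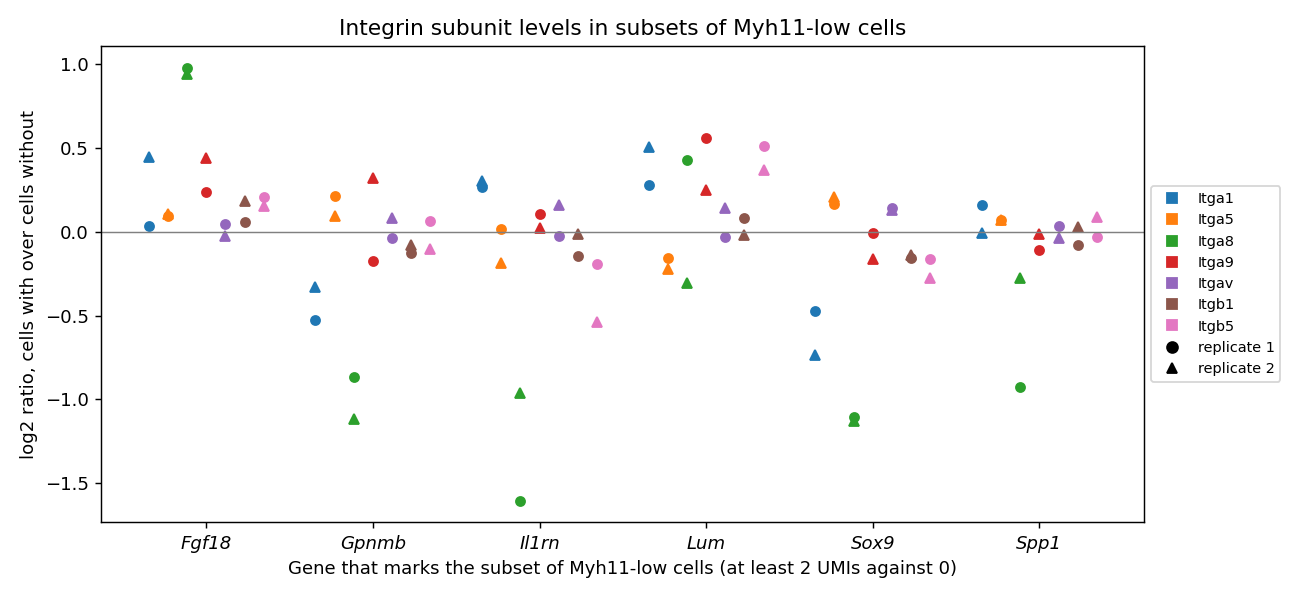
Log2 ratio of the level of 7 integrin subunit genes in *Myh11*-low cells with at least 2 UMIs of a subset gene over those with 0 UMIs of it, for replicate 1 (circles) and replicate 2 (triangles). *Itga8* lies near 1 with *Fgf18* and near or below -1 with *Sox9*, while *Itgav* and *Itgb1* lie close to 0, and *Itga7* and *Itgb3* are left out for their low counts.

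The second comparison set cycling cells against *Myh11*-low cells outside the cycle. Of the 9 members 2 were higher and 0 lower, beside 4.79% and 0.176% of all genes tested (with the library as a block 3 higher and 0 lower, beside 13.2% and 7.80%). No member was lower at an unadjusted p under 0.05 or with DESeq2 either (0 in both), and the median log2 fold change was 0.02 (-0.03 over all genes). *Itga7* was at 2.46 and 3.73 CPM in cycling cells, above the 0.52 and 0.65 CPM of *Myh11*-low cells, with a log2 fold change of 2.37 ± 0.39 (adjusted p = 0.0159 in edgeR). *Itgb3* was at 5.99 and 7.51 CPM in cycling cells, with a log2 fold change of 0.87 ± 0.18 (adjusted p = 0.0468). *Itga8* was at 47.1 and 96.2 CPM, and its log2 fold change of 1.16 ± 0.38 passed only with the library as a block (adjusted p = 0.194 without and 0.0243 with it). The other 6 had log2 fold changes between -0.17 (*Itgav*) and 0.11 (*Itga5*).

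The cycling class holds cells of every *Myh11* count, and the levels of these genes followed that count. In cycling cells with at least 5 UMIs of *Myh11*, *Itga7* was at 17.3 and 12.5 CPM, *Itga8* at 187 and 309 CPM and *Itgb3* at 17.6 and 18.5 CPM. In cycling cells with at most 1 UMI they were at 0.38 and 0.99 CPM, at 25.1 and 27.0 CPM and at 4.11 and 4.06 CPM. With the cycling class restricted to the latter cells, neither call remained: the log2 fold change was 0.17 for *Itga7* (adjusted p = 0.958 in edgeR), 0.15 for *Itgb3* (0.84) and -0.29 for *Itga8* (0.763). The call of *Itgb3* was also lost without the 5% of cells with the most UMIs (adjusted p = 0.119), in cells with at least 1000 UMIs (0.0542) and with means of per-cell CPM in limma (0.283).

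The third comparison set the endothelial cells that came along in the culture against the mean of the *Myh11*-high, *Myh11*-low and cycling classes. These 3 are called smooth muscle classes here. Endothelial cells had 2 members higher and 5 lower, beside 12.0% and 12.2% of all genes tested. The median log2 fold change was -0.66 (-0.09 over all genes and 0.10 over the 12 other integrin subunit genes tested). With the library as a block 3 were higher and 5 lower, beside 16.6% and 20.3% of all genes. *Itgb3* was higher by 2.55 ± 0.15 on the log2 scale (adjusted p = 6.78e-05 in edgeR). At 58.6 and 45.1 CPM it stood above all smooth muscle classes, with the *Myh11*-high cells next, and 54.9% and 34.0% of endothelial cells held a UMI, where free RNA alone would give 0.94% and 0.39%. After thinning, these shares of endothelial cells were 16.5% and 12.0%. *Itga9* was at 46.4 and 34.8 CPM, overlapping the level in *Myh11*-high cells, and its log2 fold change against all 3 smooth muscle classes was 0.75 ± 0.18 (adjusted p = 0.0274).

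Among the members lower in endothelial cells, *Itga8* was at 12.7 and 16.0 CPM, from 25 and 28 UMIs in all (-2.84 ± 0.42, adjusted p = 0.00392 in edgeR). The cell with the most held 15 of these UMIs in replicate 1 and 10 in replicate 2, so that these levels lean on few cells. *Itga8* was found in 8.82% of the endothelial cells of replicate 1 (exact interval 4.11% to 16.1%) and 9.93% of replicate 2 (5.54% to 16.1%), where free RNA alone would give 4.53% and 3.66%. The thinned shares were 2.17% and 2.43%. *Itga7* had 0 UMIs in the 102 endothelial cells of replicate 1, which allows a share of cells with a UMI of up to 2.94% (3 counts), and 2 UMIs in the 141 of replicate 2. The fitted log2 fold change of -2.82 (adjusted p = 0.0319) depends on the prior count, and it did not pass with free RNA subtracted at the added estimate (adjusted p = 0.056) or with the cycling class restricted to at most 1 UMI of *Myh11* (0.16). Over both libraries, *Myh11*-high cells had 37.8 times the *Itga7* level of endothelial cells, with a counting interval from 10.5 to 312. *Myh11*-low cells did not differ in this way from endothelial cells. The mean *Itga7* level was 0.583 CPM in *Myh11*-low and 0.571 CPM in endothelial cells, with overlap of the libraries, and 3.09 CPM in cycling cells. *Itgb5* (51.0 and 32.0 CPM) was lower by a log2 fold change of -1.80 ± 0.22 (adjusted p = 0.00183), *Itgav* (57.1 and 40.5 CPM) by -1.01 ± 0.18 (adjusted p = 0.00756) and *Itgb1* by -0.66 ± 0.13 (adjusted p = 0.0112). The ratio of endothelial to *Myh11*-low CPM was 0.48 and 0.27 for *Itgb5* and 0.62 and 0.44 for *Itgav*. For *Itgb1* it was 0.80 and 0.95, while the ratio to *Myh11*-high CPM was 0.49 and 0.59. Within the single libraries, which are not scaled by TMM, the values were smaller for *Itgav* (-0.67 and -0.98) and *Itgb1* (-0.56 and -0.33), and for *Itgb5* they were -1.15 and -2.10. They were also smaller in size for *Itga8* (-2.46 and -2.71) and larger for *Itga9* (1.12 and 0.78). For *Itgb3* they lay on both sides of the fitted value (3.01 and 2.48). *Itga5* was at 97.8 and 72.0 CPM, above *Myh11*-low and cycling cells and overlapping *Myh11*-high cells, and passed only with the block (0.51, adjusted p = 0.0361, against 0.45, adjusted p = 0.513 without it). *Itga1* was at 121 and 130.2 CPM and did not pass (0.14, interval -0.68 to 0.96).

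The order of the classes therefore differed between members. *Itga7*, *Itga8*, *Itgb1*, *Itgb5* and *Itga5* were highest on average in *Myh11*-high cells, *Itgb3*, *Itga9* and *Itga1* in endothelial cells and *Itgav* in *Myh11*-low cells. Neighbours in that order overlapped between libraries at all 3 steps for *Itga1* and at none for *Itga8* and *Itgb3*. For *Itga7* only the *Myh11*-low and endothelial cells overlapped, for *Itgb1* only cycling and *Myh11*-low cells, and for *Itgb5* only *Myh11*-low and cycling cells. For *Itgav* only cycling and *Myh11*-high cells overlapped. For *Itga5* and *Itga9* the *Myh11*-high and endothelial cells overlapped, and so did the cycling and *Myh11*-low cells. The share of all genes without overlap at such steps was not counted, so that it cannot be told whether this separation is unusual.

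Of the 17 other integrin subunit genes, 12 passed the filter on low counts, and 7 of the 17 reached 5 CPM on average in some class. *Itga3*, another laminin-binding chain, was at 47.5 and 59.4 CPM in *Myh11*-high cells and at 0.97 and 4.14 CPM in *Myh11*-low cells (log2 fold change -4.47 ± 0.74, adjusted p = 0.0315 in edgeR). Its call was lost with the cycling class restricted to at most 1 UMI of *Myh11* (adjusted p = 0.0567) and with free RNA subtracted at the share from 8 endothelial markers (0.0559). *Itga2*, a collagen-binding chain, went the other way, from 10.5 and 13.9 CPM to 33.0 and 30.5 CPM (1.30 ± 0.22, adjusted p = 0.0338), and lost its call without the 5% of cells with the most UMIs (0.0628), with limma on per-cell means (0.111) and with free RNA subtracted at that share (0.464). No other of the 12 passed in this comparison, where DESeq2 also called 1 higher and 1 lower. Of all genes tested, 0.908% were higher and 2.39% lower. With the block 3 of the 12 were higher and 2 lower, beside 11.2% and 11.3% of all genes. In cycling against *Myh11*-low cells 0 of the 12 passed without the block (1 at an unadjusted p under 0.05, and 1 with DESeq2). Of all genes, 4.79% were higher and 0.176% lower there. With the block 3 of the 12 passed (2 higher, 1 lower), beside 13.2% higher and 7.80% lower of all genes. In endothelial cells *Itga6*, a laminin-binding chain (99.9 and 67.4 CPM), and its partner *Itgb4* (72.9 and 142 CPM) were higher by 3.77 ± 0.57 (adjusted p = 0.00448) and by 6.81 ± 0.34 on the log2 scale. *Itga3* was higher there too (1.86 ± 0.54, adjusted p = 0.0475), but did not pass in cells with at least 1000 UMIs (0.0538) or with free RNA subtracted at the added estimate (0.0528). Of the 12, 3 were higher in endothelial cells and 0 lower (1 lower at an unadjusted p under 0.05, 0 with DESeq2). Over all genes the shares were 12.0% and 12.2%. With the block 3 were higher and 3 lower, beside 16.6% and 20.3% of all genes. *Itga4*, *Itga11* and *Itgb8* did not pass in any comparison without the block. With it, *Itga4* passed in every comparison (adjusted p = 7.65e-04, 0.0160 and 0.0136 in edgeR, in the order above). So did *Itgb8* (0.00656, 0.0261 and 0.0243), while *Itga11* passed in endothelial cells only (0.0145). *Itga4* was highest in *Myh11*-high cells (11.2 and 27.9 CPM), *Itgb8* in *Myh11*-low cells (5.67 and 9.90 CPM) and *Itga11* in *Myh11*-high or *Myh11*-low cells depending on the library (9.15 and 1.68 against 7.76 and 3.24 CPM).

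Inside the cell, integrins connect to focal adhesion proteins. Of 24 such genes, 6 were lower and 0 higher in *Myh11*-low than in *Myh11*-high cells, with a median log2 fold change of -0.64, beside 2.39% lower and 0.908% higher of all genes. With the block 16 were lower and 1 higher, beside 11.3% and 11.2% of all genes. None was higher at an unadjusted p under 0.05 or with DESeq2 (0 in both). Among those that passed, the largest changes were in *Lims2*, an adaptor bound to integrin-linked kinase (112 and 119 against 27.5 and 16.6 CPM, -2.46 ± 0.26), and *Fblim1*, which encodes migfilin (-1.72 ± 0.31). *Actn1* and *Actn4*, the actin-crosslinking alpha-actinins, fell by 1.35 and 1.34 on the log2 scale (adjusted p = 0.00821 and 0.0222 in edgeR). In cycling cells 0 of the 24 passed without the block (1 at an unadjusted p under 0.05, 0 with DESeq2), and 4 were higher with it (13.2% of all genes). In endothelial cells 11 were lower and 2 higher, beside 12.2% and 12.0% of all genes, among them *Nexn*, an actin-binding protein of muscle (-2.46 ± 0.37), vinculin (*Vcl*, -1.62 ± 0.29), filamin A (*Flna*, -1.45 ± 0.32) and the higher paxillin (*Pxn*, 59.6 and 46.8 CPM against 12.4 to 17.3 CPM in the smooth muscle classes, 1.59 ± 0.12).

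On the outside, 19 of 21 genes of integrin ligands were tested. In *Myh11*-low cells 4 were lower and 1 higher than in *Myh11*-high cells, with a median log2 fold change of -0.24, beside 2.39% lower and 0.908% higher of all genes. With the block 9 were lower and 4 higher, beside 11.3% and 11.2%. Nephronectin (*Npnt*), a ligand of the alpha 8 chain, was at 336 and 355 CPM in *Myh11*-high and at 93.2 and 59.6 CPM in *Myh11*-low cells (-2.25 ± 0.24, adjusted p = 0.0102 in edgeR), and so was lower where *Itga8* was lower. The laminin chain gene *Lama5* (-3.01 ± 0.40), *Mfge8*, an RGD protein bound by alpha v integrins (-2.24 ± 0.18), and periostin (*Postn*, -1.15 ± 0.21) were lower as well. *Postn* lost its call without the 5% of cells with the most UMIs (adjusted p = 0.0514 in edgeR) and with free RNA subtracted at the share from 8 endothelial markers (0.149). *Lama2*, a laminin chain gene, was the 1 that was higher (0.83, adjusted p = 0.0189, named after its value was seen). In cycling cells 0 of the 19 passed without the block (2 at an unadjusted p under 0.05, 0 with DESeq2), and 3 were higher and 1 lower with it (13.2% and 7.80% of all genes). In endothelial cells 11 were lower and 1 was higher, beside 12.2% and 12.0% of all genes, with *Spp1* (-2.77 ± 0.51), *Postn* (-2.36 ± 0.23), *Tnc* (-2.24 ± 0.56) and *Lama2* (-2.05 ± 0.13) changed most.

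The genes whose levels ran most like each member over the 8 sums were found by Pearson's r of log2(CPM + 1) among 8048 genes. They are given as a description, since the sums share libraries and 8 points let many genes reach a high r. *Itgb3* ran most like *Npr1* (r = 0.997), the receptor of atrial natriuretic peptide, and *Tm6sf1* (0.994). *Itga8* ran most like *Zfhx3* (0.990), *Itga7* like *Gipc2* (0.991), *Itgb1* like *Fbxl22* (0.985) and *Flnc* (0.980), which encodes a muscle filamin. *Itgav* ran most like *S100a6* (0.992), and the collagen gene *Col1a2* was among its first 3 (0.990). *Itga1* ran most like *Ntn4* (0.988), *Itga9* like *Spryd3* (0.985) and *Itgb5* like *Mfn2* (0.992). For *Itga5* the highest r was lower, 0.960 with *Myo1e*, and *Vasp*, a focal adhesion gene, was among its first 3 (0.952).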

How the data were processed

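Single-cell data of 2 libraries were used. The authors aligned the reads to mm10 with Cell Ranger (3.0.2 per the submitters' notes, while the headers name 3.0.2 for replicate 1 and 3.1.0 for replicate 2) and deposited raw UMI counts per gene and barcode, with empty droplets and without normalization. Libraries of 127949633 and 132561822 UMIs gave 4866 and 6824 cells with medians of 22234.5 and 16310.0 UMIs. The cell filters are those of the study, which states no test for classes. Doublets were kept and no caller was run. The members, lists and tests were chosen with earlier results of these data known.

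Of the gene identifiers, 31011 of 31053 were found in GENCODE M21. Counts were summed per class and library with Python 3.11.15, and the 8 sums were tested with edgeR 4.0.16 in R 4.3.3 (TMM, filterByExpr, quasi-likelihood F test, Benjamini-Hochberg adjustment over 14204 genes, threshold 0.05). Values after ± are SEs of log2 fold changes, or SDs where so marked. No p-value was made from cells. A permutation test of 2 against 2 sums, without regard to the libraries they share, cannot go below an exact p of 0.333. Whether the libraries came from separate animals is given only as biological replicates. Same-numbered sums share a culture, and the numbers therefore pair them: their deviations from the class means correlated at 0.511 to 0.908 over 8056 genes. The fit with the library as a block, DESeq2 1.42.0, limma 3.58.1, other cell, class and count limits and single libraries were alternatives.

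Free RNA was profiled in barcodes with 1 to 100 UMIs. Its share from 8 endothelial markers in smooth muscle cells came to 80.7% and 62.3%, with *Flt1* counted there. A share from 7 endothelial genes (*Cdh5*, *Pecam1*, *Cldn5*, *Tie1*, *Emcn*, *Vwf* and *Sox17*) was added after seeing the data (5.01% and 4.48%). It is behind the expected shares of cells. *Kdr*, *Erg* and *Tek* were left out along with *Flt1*, and the part of *Flt1* alone in the fall was not tested. *Cdh5*, *Pecam1* and *Cldn5* belong to the endothelial class rule, which keeps cells rich in them out of the smooth muscle classes. The added share may therefore be too low.

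Named genes were all members, other integrin subunits with at least 5 CPM in a class, and of the focal adhesion and ligand lists up to 4 genes per comparison with the largest change past the threshold and of 1 direction in both libraries, with 3 genes of like pattern per member among those with a mean of at least 10 CPM. A count of 0 allows up to 3 counts. Of the marker lists, 2 genes are not reported here.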

Additional observations from a re-analysis of the deposited data

How the results depend on the processing

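With 2 libraries of 1 condition, fits without 1 library have no residual degrees of freedom, so that counts of genes could not be given for them. The count of genes called in *Myh11*-low against *Myh11*-high cells was 468. It was 3204 with the library as a replicate block, 805 without the filter on low counts, 742 with *Myh11* per 10000 UMIs, 1099 with limits of 10 and 0 UMIs and 1298 with DESeq2. For cycling cells 705 genes (680 higher, 25 lower) became 2983 with the block and 1194 with DESeq2 (983 higher, 211 lower). For endothelial cells 3429 became 5237 with the block and 5852 with limma on per-cell means. Subtracting free RNA at the share from 8 endothelial markers, which counted *Flt1* in smooth muscle cells, left 247, 116 and 1871 genes, and at the added share 478, 724 and 3481. Directions turned for these values, none of which passed without the block: *Itga11* in *Myh11*-low cells (0.13 with the block, 0.36 with limits of 10 and 0, 0.022 without the 5% of cells with the most UMIs, 0.28 with limma), 4 genes in cycling cells restricted to at most 1 UMI of *Myh11* (*Itga5* -0.15, *Itga8* -0.29, *Itgb1* -0.11, *Itga6* -0.042), *Itgb1* in cycling cells with DESeq2 (-0.010) and *Itga1* in endothelial cells with free RNA subtracted at the first share (-0.27). *Itga8* in cycling cells had passed with the block. In single libraries, which have no test, directions also turned for *Itga1* (0.19) and *Itga11* (0.95) in *Myh11*-low cells and *Itga9* in cycling cells (0.19) of replicate 2, and for *Itga1* in cycling (0.027) and endothelial cells (-0.042) and *Itga2* in endothelial cells (0.068) of replicate 1. At the first share *Itga7*, *Itga9*, *Itgb1* and *Itgb3* lost their calls in the first comparison (adjusted p = 0.105 to 0.182), while *Itga8* stayed past the threshold (0.04), and 6 calls of members were lost in the other comparisons. Of the other named genes *Itga2*, *Itga3*, *Lims2*, *Fblim1*, *Lama5* and *Postn* lost their calls there in the first comparison (adjusted p = 0.0533 to 0.464), and *Itga6*, *Spp1*, *Tnc* and *Lama2* in endothelial cells. The block changed no call of a member other than those given with the results. Endothelial values rest on 102 and 141 cells, which limits the precision for *Itga7* and *Itga8*.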
